A study of Mus musculus with 4 samples.

Results

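The secreted and membrane-bound metalloproteases that cut the extracellular matrix, and the tissue inhibitors that block them, were examined in RNA sequencing of mouse embryonic fibroblasts (MEFs). The members were chosen by gene symbol alone: 23 matrix metalloproteases (Mmp), 19 ADAMTS proteases (Adamts) and 4 tissue inhibitors of metalloproteases (Timp), 46 of the 36846 symbols in the deposited table. The fibroblasts were wild type (WT, 2 libraries) or lacked the gene Dnmt3l (Dnmt3l-KO, 2 libraries), and both genotypes were at passage 4 on a C57BL/6 background. The lines were made from midgestation embryos of crosses between Dnmt3l heterozygotes, and the study used such cells as nuclear donors for cloning. Whether the replicates of a genotype stem from different embryos is not stated, so a p-value reflects only the spread among these libraries, possibly technical. In such bulk samples, fewer cells of a type and less RNA per cell cannot be told apart.

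Matrix metalloproteases are zinc enzymes made as inactive precursors. Removal of the propeptide, by other proteases or by furin-like convertases, opens the active site. TIMPs bind the active site of the mature enzymes, and Timp2 also helps membrane-anchored Mmp14 to activate the precursor of Mmp2. ADAMTS proteases carry thrombospondin repeats that bind them to the matrix. They trim procollagens, cut the large aggregating proteoglycans or act on fibrillin microfibrils. Fibroblasts are a main source of these enzymes in connective tissue.

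Total counts were 40681328 to 51465395 per library, and the members held 0.319% to 0.350% of them. Fibroblast markers were abundant in each library (12 of 12 had enough counts to be tested, with a summed FPKM, the authors' fragments per kilobase scaled to library size, of 5575 to 6314). Neutrophil markers were close to absent, with S100a9, Elane and Mpo at 0 counts in all 4 libraries and a summed FPKM of 0.219 to 0.641 over 6 genes. The summed FPKM of 9 macrophage markers was 6.37 to 8.49. Dnmt3l itself held 6 counts and 1 count in WT and 0 in both Dnmt3l-KO libraries, too few to check the labels.

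The fibroblasts transcribed a wide part of the family, with Timp1 and Timp2 far above the proteases in FPKM, and no member passed the test between the genotypes. Of the 46 members, 31 had enough counts to be tested, 14 Mmp, 14 Adamts and 3 Timp genes. In edgeR's quasi-likelihood test 0 of the 31 passed at an adjusted p under 0.05, where 0.0203% of the 14760 genes tested over the whole table did. At an unadjusted p under 0.05 there was 1 member of 31, Adamts5, against 4.15% of all genes tested. With a library left out, the median log2 fold change of the members ran from -0.059 to 0.12. DESeq2's Wald test called 0 members as well (0.18% of the 17200 genes it adjusted), with 1 of the 31 at an unadjusted p under 0.05 (2.67% of the 14760 genes). The adjusted p was 0.999 in edgeR for each of the 31 members. For 29 of the 31 the larger replicate difference exceeded the difference between genotype means, against 78.7% of all genes tested.

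**Figure D1:**
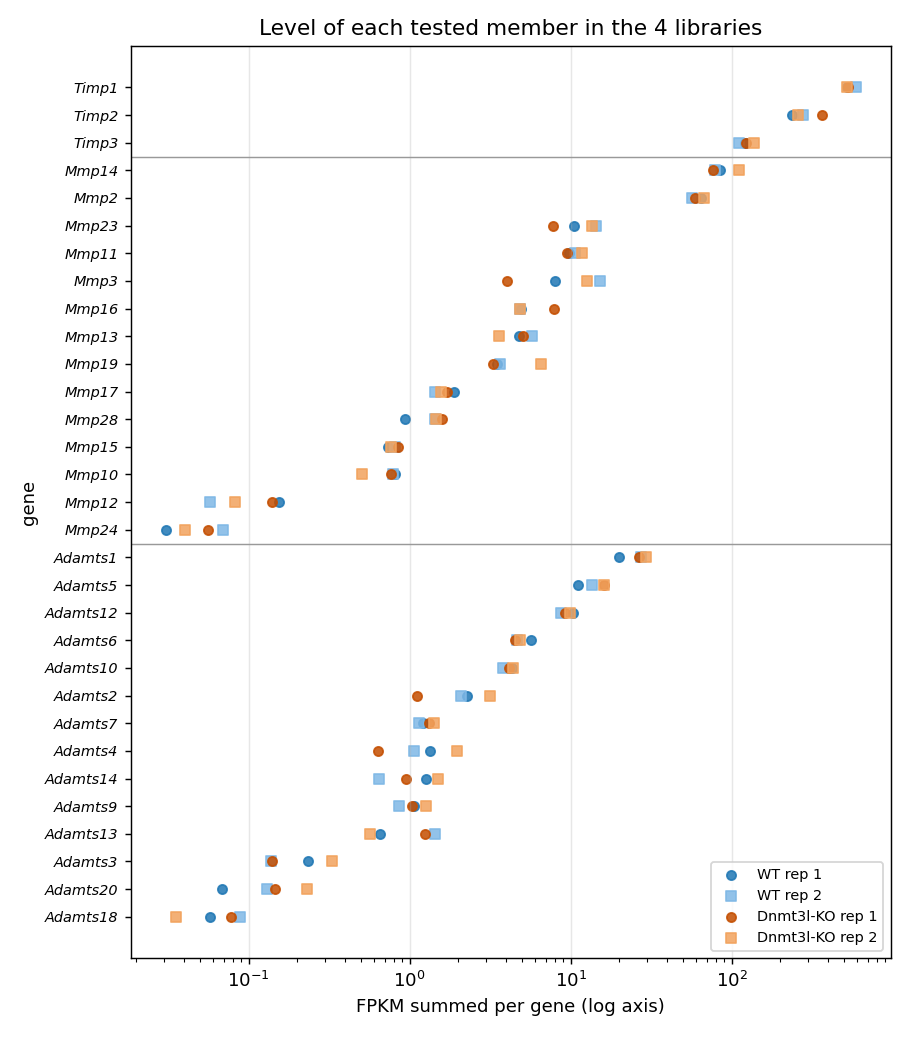
Level of the 31 tested members in each of the 4 libraries, as FPKM summed over the transcripts of a gene on a log axis, with Timp, Mmp and Adamts genes in separate blocks ordered by mean level. Timp1 is highest at 518 to 593 FPKM, Mmp14 and Mmp2 lead the proteases, and Mmp24, Adamts18, Mmp12 and Adamts20 lie at the low end.

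Timp1, Timp2 and Timp3 were the most abundant members by mean FPKM, while Timp4 was close to absent. Timp1, a secreted inhibitor of most MMPs, had 518 and 593 FPKM in the WT libraries and 531 and 522 FPKM in the Dnmt3l-KO libraries (replicates 1 and 2 in each case, here and throughout). The genotypes overlapped on this scale. In CPM (counts scaled by TMM to a common library total, with no length term) both Dnmt3l-KO libraries (527 and 497) lay below both WT libraries (542 and 567), at a log2 fold change of -0.12 ± 0.10 (SE, edgeR). Timp1 lies on the X chromosome (20870166 to 20874737, GRCm38) inside the gene of synapsin 1 on the opposite strand, and shares no exon bases with it.

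Timp2, which both inhibits MMPs and takes part in Mmp2 activation, had 238 and 278 FPKM in WT and 363 and 259.6 FPKM in Dnmt3l-KO. Dnmt3l-KO replicate 1 stood above the other 3 libraries, and replicate 2 lay between the WT libraries in FPKM and below both in CPM (998, against 1009 and 1077). The log2 fold change of 0.23 ± 0.20 (SE, edgeR) turned to -0.06 without Dnmt3l-KO replicate 1. In that same library the summed FPKM of 6 pericyte and smooth muscle markers, none of them at 0, was 2982, against 1915 to 2291 in the other 3. Acta2 and Cnn1 had the highest mean FPKM among these markers, and the list's median log2 fold change was 0.04. Of the other marker lists summed, the endothelial (4.43 FPKM, against 1.57 to 2.26) and macrophage lists (8.49, against 6.37 to 7.76) also peaked in Dnmt3l-KO replicate 1. The part of these sums in the Timp2 value was not tested.

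Timp3, the inhibitor that stays bound to the matrix and also blocks several ADAMTS enzymes, had 122 and 112 FPKM in WT and 124 and 138 FPKM in Dnmt3l-KO. Both Dnmt3l-KO libraries were above both WT libraries on this scale. On the CPM scale the genotypes overlapped (664 and 557 in WT, 639 and 685 in Dnmt3l-KO), at a log2 fold change of 0.12 ± 0.13 (SE, edgeR). Timp3 (chromosome 10, 86300412 to 86349505) lies within Syn3 on the opposite strand and shares 1733 of its 8144 annotated exon bases with it. The sources used here do not say whether strand was used in counting, but Syn3 itself held only 9 to 13 counts per library. Timp4, mostly known from heart and fat, stayed at 2 to 9 counts per library, too few to test.

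Among the proteases, Mmp14 and Mmp2 held 69.6% to 76.5% of the summed Mmp FPKM in each library. Mmp14, the membrane-anchored enzyme that cuts fibrillar collagen at the cell surface, had 85.3 and 79.0 FPKM in WT and 76.6 and 111 FPKM in Dnmt3l-KO. Dnmt3l-KO replicate 2 was highest. Dnmt3l-KO replicate 1 was lowest in FPKM and WT replicate 2 in CPM (218, against 219.6). The log2 fold change was 0.14 ± 0.19 (SE, edgeR), and -0.12 without Dnmt3l-KO replicate 2. Mmp2, the gelatinase that cuts denatured and basement membrane collagen, had 65.1 and 56.7 FPKM in WT and 59.6 and 67.8 FPKM in Dnmt3l-KO. Its genotype means were close, at 209 ± 33.5 and 211 ± 13.1 CPM (mean ± SD, n = 2 each), at a log2 fold change of 0.02 ± 0.14 (SE, edgeR). The other gelatinase, Mmp9, typical of leukocytes and osteoclasts, had 20 counts in WT replicate 1 and 2 to 9 in the other 3 libraries and was not tested.

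The other membrane-type enzymes were far lower per length. Mmp16, a transmembrane relative of Mmp14, had 4.89 and 4.87 FPKM in WT and 7.86 and 4.85 FPKM in Dnmt3l-KO. Dnmt3l-KO replicate 1 was alone above the other 3 libraries, which lay close together. Without that library the log2 fold change turned from 0.34 ± 0.26 (SE, edgeR) to -0.09. Mmp17, anchored by a lipid tail, ranged from 1.44 to 1.88 FPKM over the 4 libraries, and Mmp15 from 0.733 to 0.854 FPKM, both with overlapping genotypes. Mmp24, known from the nervous system, had 7 to 13 counts per library, and Mmp25, a leukocyte enzyme, 2 to 6 counts, which was too few to test.

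Summed over each family, TIMP transcripts outnumbered MMP transcripts per length in each library. The summed Timp FPKM was 879 and 984 in WT and 1018 and 919.7 in Dnmt3l-KO, and the summed Mmp FPKM was 197 and 195 in WT and 179 and 236 in Dnmt3l-KO. The ratio of Timp to Mmp was 4.47 and 5.05 in WT and 5.69 and 3.89 in Dnmt3l-KO. Both extremes of the ratio were Dnmt3l-KO libraries, so the WT range lay inside the Dnmt3l-KO range. The summed Adamts FPKM was 59.9 and 65.7 in WT and 67.3 and 75.1 in Dnmt3l-KO. Both Dnmt3l-KO libraries were above both WT libraries for this sum, in which Adamts1 and Adamts5 had the largest shares, and it was given no test.

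**Figure D2:**
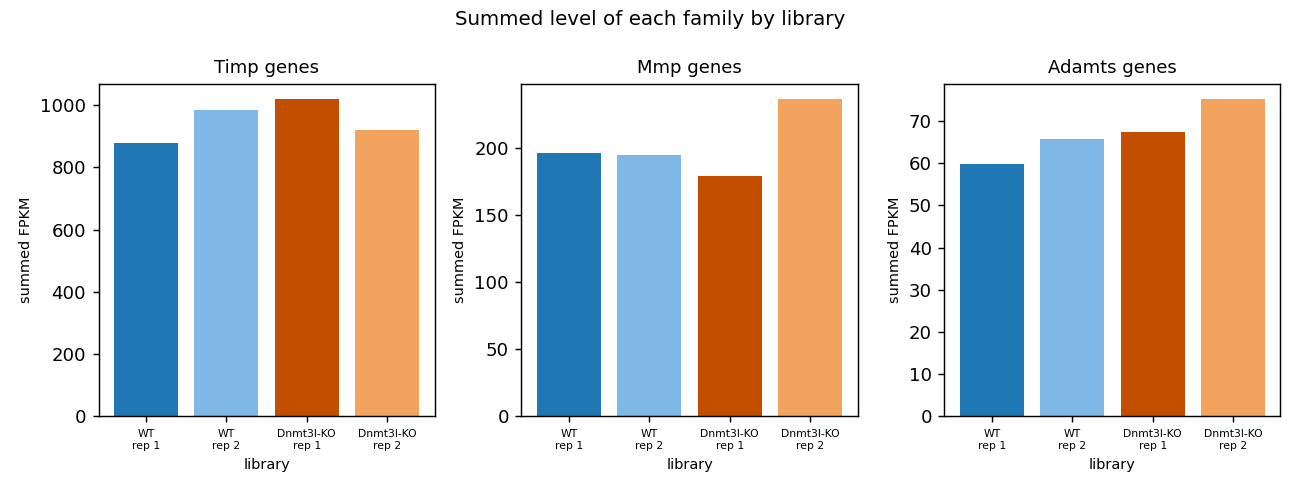
Summed FPKM of the Timp, Mmp and Adamts genes in each library, 1 bar per library, on axes that start at 0 and differ between the panels. The Mmp sum is lowest in Dnmt3l-KO replicate 1 at 179 FPKM and highest in Dnmt3l-KO replicate 2 at 236 FPKM, while the WT libraries are at 197 and 195 FPKM.

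Of the Mmp genes, 10 lie side by side in a 427 kb cluster on chromosome 9 (7272514 to 7699585, GRCm38). It holds collagenases, stromelysins, matrilysin, macrophage elastase and enamelysin. In these fibroblasts the cluster was read unevenly: Mmp3, Mmp13, Mmp10 and Mmp12 had enough counts to be tested, Mmp1b had 2 to 4 counts per library, and Mmp1a, Mmp7, Mmp8, Mmp20 and Mmp27 had 0 counts in all 4 libraries. A count of 0 allows up to 3 counts, or 0.0583 to 0.0737 CPM of the unscaled totals, a bound on counting error alone, because PCR copies are not independent molecules. The transcripts of Mmp1a and Mmp1b were 90.5% identical over 1453 bases, so their counts are uncertain. Promoters of the cluster are shown because they share letters seldom found in the other members. RefSeq promoters (GRCm38.p6) were matched for 32 of the 46 members, all 10 in the cluster among them. The AP-1 motif TGANTCA, which reads the same on both strands, was searched within 250 bases before each annotated start. A gene with several starts counted if any had the motif, as for Mmp12 and Mmp7, each with another start lacking it. The motif was found in 8 of the 10 cluster genes and in 0 of the 22 other members. Of the 27025 genes with a promoter in the table, 7.82% had it. The TATA box motif TATAAA, searched on the gene's own strand, was found in 7 of the 10, all with the AP-1 motif, and in 2 of the 22 other members, against 8.94% of all genes. Both motifs together occurred in 1.05% of all genes. The motifs do not overlap in the sequences shown. Each is the 120 bases before the annotated start, on the plus strand, with the AP-1 and TATA motifs in capitals. The first 3 belong to genes that were transcribed here and the last 2 to genes at 0 counts.
Mmp13, chr9:7272394-7272513: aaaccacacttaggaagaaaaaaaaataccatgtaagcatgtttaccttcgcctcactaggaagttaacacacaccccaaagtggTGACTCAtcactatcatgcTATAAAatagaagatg
Mmp3, chr9:7445702-7445821: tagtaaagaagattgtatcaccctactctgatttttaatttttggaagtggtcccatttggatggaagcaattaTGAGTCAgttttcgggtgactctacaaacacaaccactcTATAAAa
Mmp10, chr9:7502222-7502341: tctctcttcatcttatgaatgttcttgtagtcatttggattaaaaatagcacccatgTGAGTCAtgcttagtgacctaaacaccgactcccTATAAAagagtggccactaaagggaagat
Mmp1a, chr9:7464021-7464140: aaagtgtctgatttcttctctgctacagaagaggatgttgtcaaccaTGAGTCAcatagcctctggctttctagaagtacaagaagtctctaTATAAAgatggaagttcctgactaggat
Mmp7, chr9:7691970-7692089: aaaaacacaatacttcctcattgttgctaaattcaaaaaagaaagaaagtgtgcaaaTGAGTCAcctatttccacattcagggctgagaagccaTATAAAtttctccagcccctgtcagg

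The AP-1 letters are TGACTCA in Mmp13 and TGAGTCA in the other 4, and they start 35, 46, 63, 73 and 63 bases before the annotated start in the order shown. Genes at 0 counts thus carried the same motifs as genes that were read, and a match is a description of the letters, not of binding.

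Mmp3, stromelysin 1, which cuts proteoglycans and activates other MMPs, was the most variable member of the 31 between libraries. It had 7.95 and 15.2 FPKM in WT and 4.05 and 12.6 FPKM in Dnmt3l-KO. In CPM the highest library was 3.63-fold above the lowest, and in both genotypes replicate 2 was above replicate 1, by 0.81 in WT and 1.58 in Dnmt3l-KO on the log2 scale. The difference between genotypes, a log2 fold change of -0.52 ± 0.56 (SE, edgeR), was smaller than either. Mmp3 was 95.4% identical over 284 bases to the pseudogene Gm15242, so its count is uncertain to that extent. The summed FPKM of 7 chondrocyte markers, none of them at 0, was likewise higher in replicate 2 of each genotype (60.9 and 92.8 in WT, 60.9 and 102 in Dnmt3l-KO). Of the other marker lists summed, that of 12 fibroblast markers was so too (5575 and 6314 in WT, 5617 and 6267 in Dnmt3l-KO). The chondrocyte sum was highest in Dnmt3l-KO replicate 2, and Mmp3 in WT replicate 2. The part of these sums in the Mmp3 value was not tested.

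Mmp13, the main interstitial collagenase of mouse, had 4.80 and 5.78 FPKM in WT and 5.04 and 3.61 FPKM in Dnmt3l-KO. In CPM both Dnmt3l-KO libraries (14.9 and 10.2) were below both WT libraries (14.9 and 16.5), the first of them only just. The log2 fold change was -0.32 ± 0.20 (SE, edgeR), and -0.08 without Dnmt3l-KO replicate 2. Mmp10, stromelysin 2, whose transcript was 81.2% identical to that of Mmp3 over 1338 bases, had 0.807 and 0.792 FPKM in WT and 0.767 and 0.508 FPKM in Dnmt3l-KO. Here too the last library was the low one, and the log2 fold change was -0.37 ± 0.35 (SE, edgeR). Mmp12, macrophage elastase, had 6 to 15 counts per library, lowest in Dnmt3l-KO replicate 2. Within Dnmt3l-KO, replicate 2 was therefore the lower library for Mmp10, Mmp12 and Mmp13 and replicate 1 for Mmp3, and the cluster did not move as a block.

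Outside the cluster, Mmp23, an unusual membrane-tethered MMP, had 10.5 and 14.4 FPKM in WT and 7.77 and 13.7 FPKM in Dnmt3l-KO. Mmp11, stromelysin 3, a furin-activated enzyme of stromal cells, had 9.82 and 10.6 FPKM in WT and 9.57 and 11.7 FPKM in Dnmt3l-KO, and was among the steadiest members. Mmp11 lies on chromosome 10 (75923221 to 75932502), 2.11 Mb from Dnmt3l, and its log2 fold change was 0.04 ± 0.12 (SE, edgeR). On the same chromosome Timp3, Adamts14 and Mmp19 lie 8.24, 16.8 and 50.7 Mb from Dnmt3l. Mmp19, an enzyme of basement membrane components, had 3.47 and 3.64 FPKM in WT and 3.30 and 6.57 FPKM in Dnmt3l-KO. Dnmt3l-KO replicate 2 alone was high, and the log2 fold change of 0.43 ± 0.32 (SE, edgeR) turned to -0.12 without it. The excess lay in transcript variant 1 (659 counts there, 289 to 296 elsewhere). Variant 2 had 319 counts there and 247 to 346 elsewhere. Mmp19 shares 789 of its 3533 exon bases with Tmem198b on the opposite strand. Tmem198b held 1155 to 1313 counts per library and was also highest in Dnmt3l-KO replicate 2 (31.4 CPM, against 25.9 to 27.8). Its part in the Mmp19 value was not tested. Mmp28, epilysin, had 0.943 and 1.43 FPKM in WT and 1.58 and 1.46 FPKM in Dnmt3l-KO. Both Dnmt3l-KO libraries were above both WT libraries on the FPKM and CPM scales, by a log2 fold change of 0.34 ± 0.25 (SE, edgeR), with WT replicate 2 close below them. It shares 466 of its 3874 exon bases with 1700020L24Rik on the opposite strand. Mmp21, which acts in left-right patterning, had 0 counts throughout.

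Of the hyalectan-cleaving ADAMTS enzymes, which cut aggrecan, versican and their relatives, Adamts1 and Adamts5 were the most abundant. They lie next to each other on chromosome 16 (85793827 to 85803113 and 85858157 to 85901125). Adamts5 had 11.2 and 13.6 FPKM in WT and 16.0 and 16.1 FPKM in Dnmt3l-KO, with no overlap. In CPM it had 112 ± 8.34 in WT and 141 ± 3.57 in Dnmt3l-KO (mean ± SD, n = 2 each), at a log2 fold change of 0.34 ± 0.10 (SE). That was the smallest p of the 31 members (edgeR, unadjusted p = 0.0191, adjusted p = 0.999). It was positive in each of the 13 alternatives, with log2 fold changes of 0.26 to 0.41 when a library was left out, and passed over all genes in none of them. The genotypes did not overlap for Adamts5 in FPKM or CPM, so leaving out a library could hardly turn that sign. Adamts1 had 20.0 and 27.2 FPKM in WT and 26.7 and 29.2 FPKM in Dnmt3l-KO. WT replicate 1 alone was low, and the log2 fold change of 0.21 ± 0.13 (SE, edgeR) was 0.06 without it.

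Adamts4, an inducible aggrecanase, had 1.34 and 1.06 FPKM in WT and 0.637 and 1.96 FPKM in Dnmt3l-KO. The Dnmt3l-KO libraries were 2.94-fold apart in CPM with the WT libraries between them, and the log2 fold change was 0.04 ± 0.54 (SE, edgeR). Adamts9, a versican-cutting enzyme, had 1.06 and 0.863 FPKM in WT and 1.04 and 1.27 FPKM in Dnmt3l-KO, at a log2 fold change of 0.24 ± 0.18 (SE, edgeR). It shares 1381 of its 15048 exon bases with A730049H05Rik on the opposite strand. Adamts20 had 22 to 26 counts per library, and Adamts15 and Adamts8 at most 10 and 3 counts.

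The procollagen N-propeptidases, which trim the amino end of fibrillar procollagens before fibrils form, were among the members with the widest spread. Adamts2 had 2.26 and 2.10 FPKM in WT and 1.12 and 3.15 FPKM in Dnmt3l-KO. Adamts14 had 1.27 and 0.642 FPKM in WT and 0.952 and 1.498 FPKM in Dnmt3l-KO. Adamts3 had 0.234 and 0.139 FPKM in WT and 0.140 and 0.329 FPKM in Dnmt3l-KO. All 3 were highest in Dnmt3l-KO replicate 2, and none of them separated the genotypes. The summed FPKM of 7 osteoblast markers, none of them at 0 and most of it from Spp1, was 226 and 203 in WT and 124 and 308 in Dnmt3l-KO. That sum ranked the 4 libraries in the same order as Adamts2, Adamts4 and Mmp14 did in FPKM. Several marker lists were summed, and 4 libraries have few possible orders. How many of all genes share the order was not counted, and the sum's part in those values was not tested.

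Adamts12 and Adamts7, which can cut cartilage oligomeric matrix protein, differed in level. Adamts12 had 10.4 and 8.71 FPKM in WT and 9.20 and 9.88 FPKM in Dnmt3l-KO, inside the WT range. Adamts7 had 1.21 and 1.14 FPKM in WT and 1.32 and 1.41 FPKM in Dnmt3l-KO, with no overlap, at a log2 fold change of 0.19 ± 0.16 (SE, edgeR). Adamts6 had 5.65 and 4.64 FPKM in WT and 4.49 and 4.89 FPKM in Dnmt3l-KO, at a log2 fold change of -0.19 ± 0.14 (SE, edgeR) that was -0.0029 without WT replicate 1. Its relative Adamts10, which acts on fibrillin microfibrils, ranged from 3.79 to 4.37 FPKM. Adamts16, Adamts17 and Adamts19 had at most 10, 7 and 2 counts per library, and Adamts18 had 9 to 25 counts.

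Adamts13, the liver enzyme that cuts von Willebrand factor, ranged from 88 counts in Dnmt3l-KO replicate 2 to 236 in replicate 1, with 125 and 222 in the WT libraries. All of these counts fell on 2 of its 11 transcripts, the variants named IAP-a and IAP-b after an intracisternal A particle, a retroviral element that lies in the gene in C57BL/6 mice. IAP-a held 52.0% and 48.6% of them in WT and 46.6% in each Dnmt3l-KO library. Such elements occur in many near-identical copies, so the Adamts13 value is uncertain. Its pattern, high in WT replicate 2 and Dnmt3l-KO replicate 1, was opposite to that of Adamts3.

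Across the 31 tested members the fold changes were balanced around 0. There were 17 positive and 14 negative values, where 51.3% of all genes tested were positive, and the median log2 fold change was 0.02, against 0.01 over all genes tested. The medians were 0.01 for the 14 Mmp genes, 0.02 for the 14 Adamts genes and 0.12 for the 3 Timp genes. The values ran from -0.52 (Mmp3) to 0.43 (Mmp19). In CPM the genotypes did not overlap for 6 of the 31 members, against 32.8% of all genes tested. Adamts1, Adamts5, Adamts7 and Mmp28 were higher in both Dnmt3l-KO libraries (16.2% of all genes) and Mmp13 and Timp1 lower in both (16.5% of all genes). In FPKM it was also 6 of 31, against 29.5% of all genes, and 3 members did not overlap on either scale: Adamts5, Adamts7 and Mmp28.

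**Figure D3:**
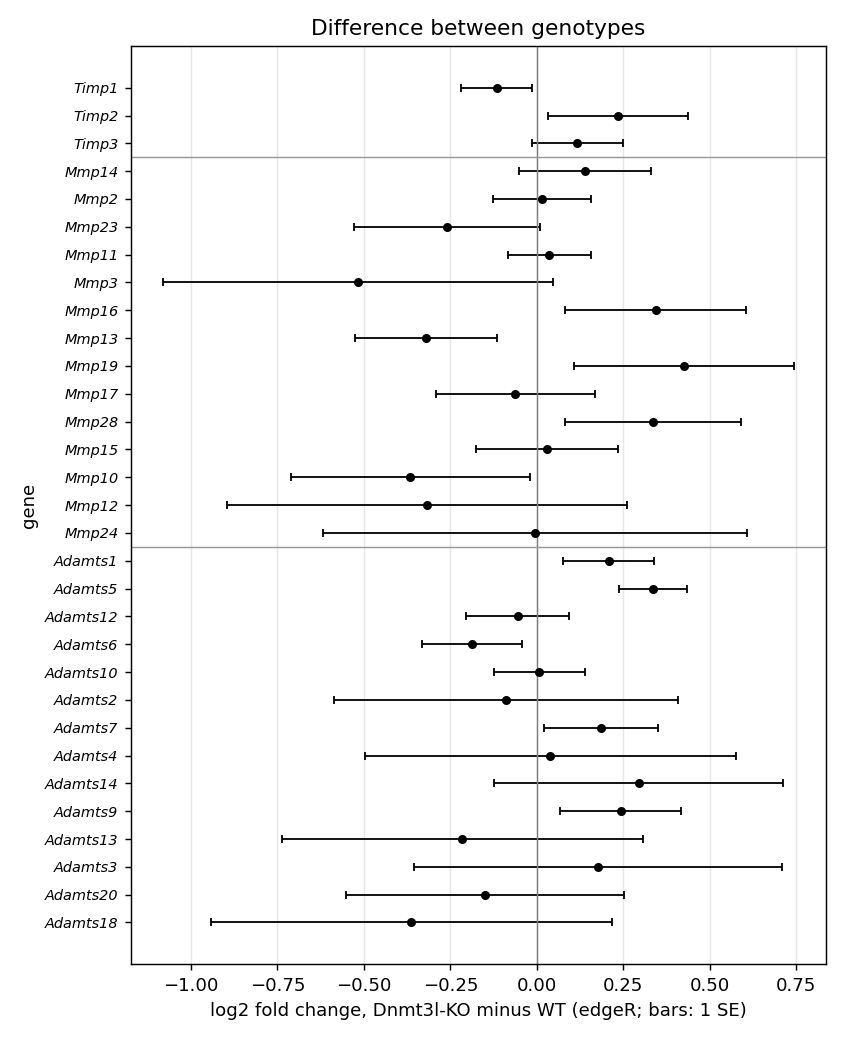
Log2 fold change of each tested member, Dnmt3l-KO minus WT, from edgeR, with bars of 1 standard error. The points lie on both sides of 0, from -0.52 for Mmp3 to 0.43 for Mmp19, and Adamts5 at 0.34 ± 0.10 lies furthest from 0 relative to its error.

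The spread between replicates was wider for this family than over all genes, and this was not particular to it. The median absolute log2 difference between replicates of the tested members was 0.28 in WT and 0.47 in Dnmt3l-KO. Over all genes tested it was 0.13 and 0.23. Among the related lists described below it was 0.34 and 0.32 for ADAM and astacin proteases and 0.33 and 0.29 for ADAMTS-like proteins. It was 0.30 and 1.01 for matrix substrates, 0.18 and 0.19 for activators and regulators, and 0.13 and 0.37 for transcription factors. Low counts add to such values, so the same was computed for genes with a mean of at least 10 CPM. There the 17 members had medians of 0.25 in WT and 0.23 in Dnmt3l-KO, against 0.09 and 0.17 over 8800 genes. A replicate difference above 0.5 in either genotype was found in 7 of the 17 members and in 12.1% of the 8800 genes. For 29 of the 31 members the larger of the replicate differences exceeded the difference between genotype means, against 78.7% of all genes tested. Such counts describe these libraries and were given no test.

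**Figure D4:**
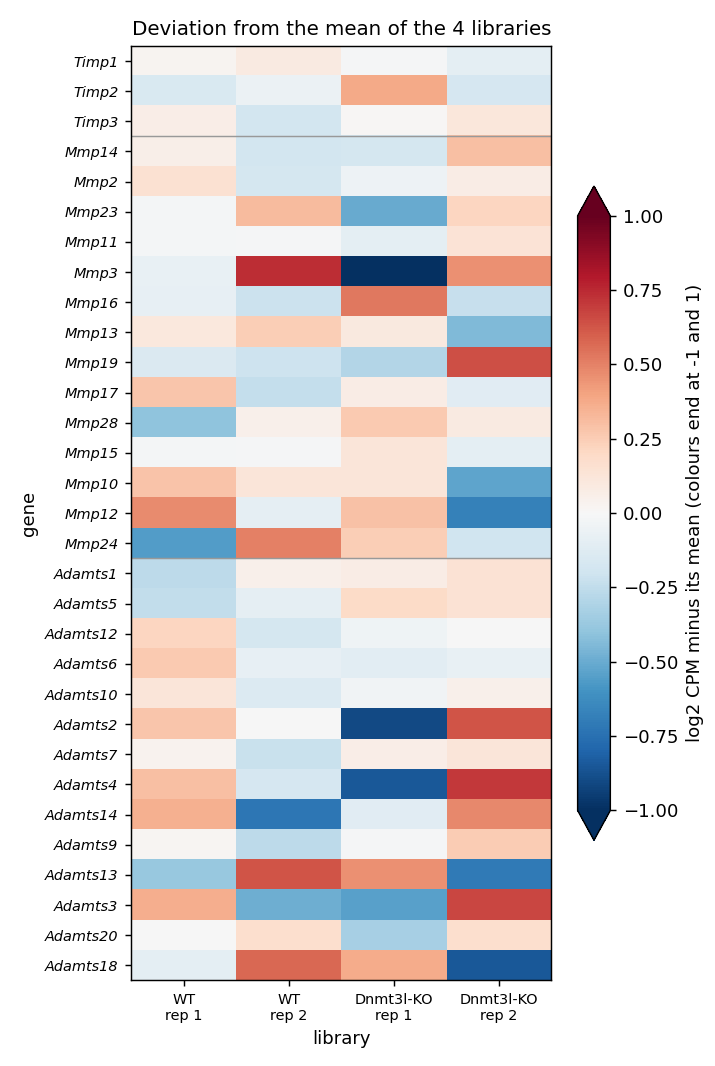
Deviation of log2 CPM from its mean over the 4 libraries for each tested member, with red above and blue below the mean and colours ending at -1 and 1. Opposite colours often fill the Dnmt3l-KO columns of a gene, as for Mmp3, Adamts2, Adamts4 and Mmp19, and seldom does a genotype share a colour that the other lacks, as Adamts5 does.

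Several members are split over alternative transcripts in the deposited table. Timp1 was divided in nearly fixed shares, with transcript variant 2 at 55.4% to 57.0% of its counts in the 4 libraries. For Adamts9, variant X2 rested on 45 and 49 counts (WT) against 107 and 129 (Dnmt3l-KO), and variant X3 on 2 and 24 (WT) against 175 and 45 (Dnmt3l-KO). In the authors' deposited table these had log2 fold changes of 0.70 and 0.62 with adjusted p of 0.918 and 0.903, the second being the lowest of the 48 member transcripts with an adjusted p. None of those 48, 0 in all, was under 0.05 in the authors' deposited table, against 0.441% of all transcripts with an adjusted p there, and 3 of the 113 member transcripts with a p there had an unadjusted p under 0.05, against 2.65% of all transcripts. The third was Adamts7 variant X6, with 102 counts in WT replicate 2 and 1 to 16 elsewhere, while the transcript without a variant number had 0 counts in WT replicate 2 and 145 to 183 elsewhere. WT replicate 2 was also the library with 0 counts for the Adamts9 transcript without a variant number, which held 22 to 116 in the others.

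Genes around the proteases were also counted, from lists chosen by function. In each of the 5 lists 0 genes passed in edgeR and 0 in DESeq2, and the genes named are the 3 of each list with the smallest p in edgeR. The log2 fold change was positive for 6 of 10 activators and regulators, 4 of 5 ADAMTS-like proteins, 9 of 12 ADAM and astacin proteases, 10 of 12 substrates and 14 of 15 transcription factors, against 51.3% of all genes. In CPM the genotypes did not overlap for 3 of 10, 1 of 5, 3 of 12, 2 of 12 and 2 of 15 in the same order, against 32.8% of all genes. Among activators and other regulators, 0 of 10 tested passed and 1 was at an unadjusted p under 0.05 in edgeR. That was Lrp1, the endocytic receptor that clears MMPs, ADAMTS enzymes and TIMPs from the cell surface. It had 1317 and 1233 CPM in WT and 1619 and 1686 CPM in Dnmt3l-KO, at a log2 fold change of 0.37 ± 0.11 (SE, edgeR, unadjusted p = 0.0204, adjusted p = 0.999). Reck, a membrane-anchored MMP inhibitor, had 16.1 and 17.4 CPM in WT and 18.1 and 23.3 CPM in Dnmt3l-KO. Pcsk6, a proprotein convertase, had 8.37 and 11.4 CPM in WT and 13.6 and 11.8 CPM in Dnmt3l-KO. The list's median log2 fold change was 0.09.

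Of the ADAMTS-like proteins and papilin, matrix proteins without protease domains, 0 of 5 tested passed in edgeR and 0 had an unadjusted p under 0.05, with a median log2 fold change of 0.20. Adamtsl1 had 7.86 and 6.83 CPM in WT and 8.14 and 8.73 CPM in Dnmt3l-KO, with no overlap, while Adamtsl4 (21.8 to 32.8 CPM) and Thsd4 (2.06 to 2.85 CPM) overlapped. Of ADAM and astacin metalloproteases 0 of 12 tested passed in edgeR and 0 had an unadjusted p under 0.05, with a median of 0.09. The sheddase Adam10 had 145 and 132 CPM in WT and 154 and 149 CPM in Dnmt3l-KO. Adam15 had 77.5 and 78.2 CPM in WT and 100.2 and 82.5 CPM in Dnmt3l-KO, and the astacin Tll2 stayed at or below 0.263 CPM.

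Of the matrix substrates 0 of 12 tested passed in edgeR and 0 had an unadjusted p under 0.05, with a median log2 fold change of 0.14. Fibronectin (Fn1) had 7316 and 5570.3 CPM in WT and 7826 and 7865 CPM in Dnmt3l-KO. Fbn2, the fetal fibrillin, had 53.2 and 79.5 CPM in WT and 30.8 and 232 CPM in Dnmt3l-KO, so that WT lay between the Dnmt3l-KO libraries, and its log2 fold change of 0.99 ± 0.90 (SE, edgeR) was -1.11 without Dnmt3l-KO replicate 2. Bcan, a proteoglycan of brain, was under 0.3 CPM throughout. Of 15 transcription factors with known sites in MMP promoters 0 passed in edgeR and 0 had an unadjusted p under 0.05, with a median of 0.12. The AP-1 subunit Jun had 84.4 and 91.3 CPM in WT and 96.4 and 101 CPM in Dnmt3l-KO, and Fosb had 1.17 and 1.32 CPM in WT and 1.86 and 1.79 CPM in Dnmt3l-KO, both without overlap. Fosl2 had 208 and 240.3 CPM in WT and 233 and 269.6 CPM in Dnmt3l-KO, with overlap.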

How the data were processed

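The submitters' processing notes list build mm10 and, with no role given, DESeq2 1.8.0, eXpress 1.4.1, Cufflinks 2.2.1 and TopHat2 2.0.12. Per the labels' protocols, RNA was depleted of ribosomal RNA and randomly primed. The deposited table holds, per the file headers, an estimated count (whole numbers as deposited) and an FPKM value for each of 116415 RefSeq transcripts. The authors' own comparison stands beside these, per the file headers, as log2 fold change, p-value (raw and adjusted), test score and mean normalized signal.

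Counts and FPKM were summed per gene symbol. Symbols passing edgeR's expression filter (14760) were tested as Dnmt3l-KO minus WT with edgeR 4.0.16 in R 4.3.3 (TMM, robust quasi-likelihood F-test, Benjamini-Hochberg over all genes, threshold 0.05). SEs come from the F statistic. DESeq2 1.42.0 and limma 3.58.1 served as alternatives, with log2(FPKM + 1) or log2(FPKM + 0.1) for limma. The fit was tested on simulated counts, with a gene's spread set by its level, which does not give its power for these members. Positions are from RefSeq GRCm38.p6 (46 symbols matched), the build of mm10. Copies were compared with BLAST 2.17.0 on GENCODE transcripts. The members and lists were chosen with earlier results of these data known. Full statistics are given for Mmp2, Mmp14, Timp1 to Timp3, the 5 most abundant members and the 8 with the smallest p. Of each list the 3 genes with the smallest p are named. All other members with fold changes, Dnmt3l, Syn3, Tmem198b and Gm15242 were named outside that rule.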

Additional observations from a re-analysis of the deposited data

How the results depend on the processing

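No member passed over all genes in any of the 13 alternatives, with a smallest adjusted p of 0.252 among the named genes. Over the whole table, the count of genes called was 3 in edgeR, 31 in DESeq2's Wald test, 6 with limma on log2(FPKM + 1), 9 with limma on log2(FPKM + 0.1), 8 with no filter, and 2 to 7 with a library left out. Members at an unadjusted p under 0.05 are not counted here with a library left out, because a genotype then holds a single library. With a library left out, the lone library of a genotype is assumed to vary like the other genotype. Medians then ran from -0.059 to 0.12 for all members, -0.064 to 0.030 for Mmp, -0.090 to 0.23 for Adamts and -0.063 to 0.19 for Timp genes, and the Mmp median was 0.058 on log2(FPKM + 0.1). With the replicate number as a block, 2 members were at an unadjusted p under 0.05 (4.03% of all genes) and 4 genes were called over the whole table. Whether same-numbered libraries share more than a label is not stated. Their deviations correlated at 0.10 over 14760 genes, which cannot decide it with so few libraries. Fold changes turned sign in 10 of 362 recomputed values of 28 named genes. With a library left out they ran from -0.12 to 0.36 for Mmp14, -0.085 to 0.67 for Mmp16, -0.12 to 0.82 for Mmp19, -0.14 to 0.19 for Mmp2, -0.063 to 0.48 for Timp2, -0.0053 to 0.25 for Timp3, -0.036 to 0.41 for Adamtsl4 and -1.11 to 1.81 for Fbn2, and Mmp2 was at -0.0013 with upper quartile factors. The 15 members not tested had at most 20 counts in any library, and 6 had 0 counts. At this depth low transcription and none cannot be told apart.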
